A study of Caenorhabditis elegans with 2 samples.

Results

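The BMP body size pathway of Caenorhabditis elegans was examined as 10 genes of DBL-1 signalling among 19973 nuclear protein-coding genes: dbl-1, lon-2, sma-10, daf-4, sma-6, sma-2, sma-3, sma-4, sma-9 and lon-1. The genes were chosen by pathway membership, with their IDR peaks and signal values known from earlier results of the same data, so their counts and levels are descriptions. Every deposited region that overlapped the gene body or the 5 kb on either side of it by at least 1 bp was taken. UNC-55 is a COUP-TF type nuclear receptor, and its binding was mapped by ChIP-seq in whole late embryos of mixed sex from strain NC1639. This strain carries the integrated construct wdIs49 on chromosome III, in which the ttr-39 promoter drives UNC-55a fused to GFP, with dpy-20 as marker. A note in the labels gives the tag as GFP with FLAG, and the antibody is named only as unc-55. There were 2 biological replicates in 1 group, each with its own biosample record, so no groups were compared; the control library was not analysed here. The ttr-39 promoter is known as a driver in GABA motor neurons, while body size signalling acts in the epidermis, and which cells the regions come from cannot be read from whole embryos.

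DBL-1 is a secreted BMP-like ligand made mainly by neurons. It binds a complex of the type I receptor SMA-6 and the type II receptor DAF-4, which activates the receptor Smads SMA-2 and SMA-3. These join the co-Smad SMA-4, enter the nucleus and act with SMA-9, a zinc finger protein of the Schnurri family. Worms that lose a positive component are small, hence the sma names, and worms that lose the inhibitors LON-1 or LON-2 are long.

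The lists used were in ce11 coordinates. The optimal IDR set, kept by the irreproducible discovery rate, which scores the repeatability of ranked regions, held 2511 peaks, the strongest of the pooled list. The pooled list and the list of replicate 2 each held 30000 regions and the list of replicate 1 held 3577. The pooled and replicate lists are labelled as peaks and background, so presence in them alone says little. Each region carries the signal value of the authors' peak caller, which is not scaled between lists, and a rank by that value within its list, 1 being the strongest. Read depth is unknown.

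The IDR set had a peak at 5 of the 10 genes, sma-9, daf-4, sma-4, lon-2 and sma-6, with 8 peaks in all. Across all protein-coding genes 24.6% had such a peak, and among the 8295 genes whose gene plus flanks was as long as those of the members, 12.3 to 23.7 kb, 29.8% did. With 10 genes these shares are a description and were not tested. Of the 8 peaks, 3 were at sma-9, where 2 overlapped, and 5 at the other genes. Per kb of gene plus flanks, sma-4 had 0.143 IDR peaks and sma-9 0.127. No member had an IDR summit in its promoter window, which covered 1000 bp before and 200 bp after any of its protein-coding transcript starts, against 7.34% of all genes. In 3 members, sma-9, daf-4 and lon-2, the gene itself had the nearest protein-coding start to the summit, and 10.1% of all genes had an IDR summit assigned in this way. The peaks at sma-4 and sma-6 lay nearest to the start of a neighbouring gene.

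**Figure D1:**
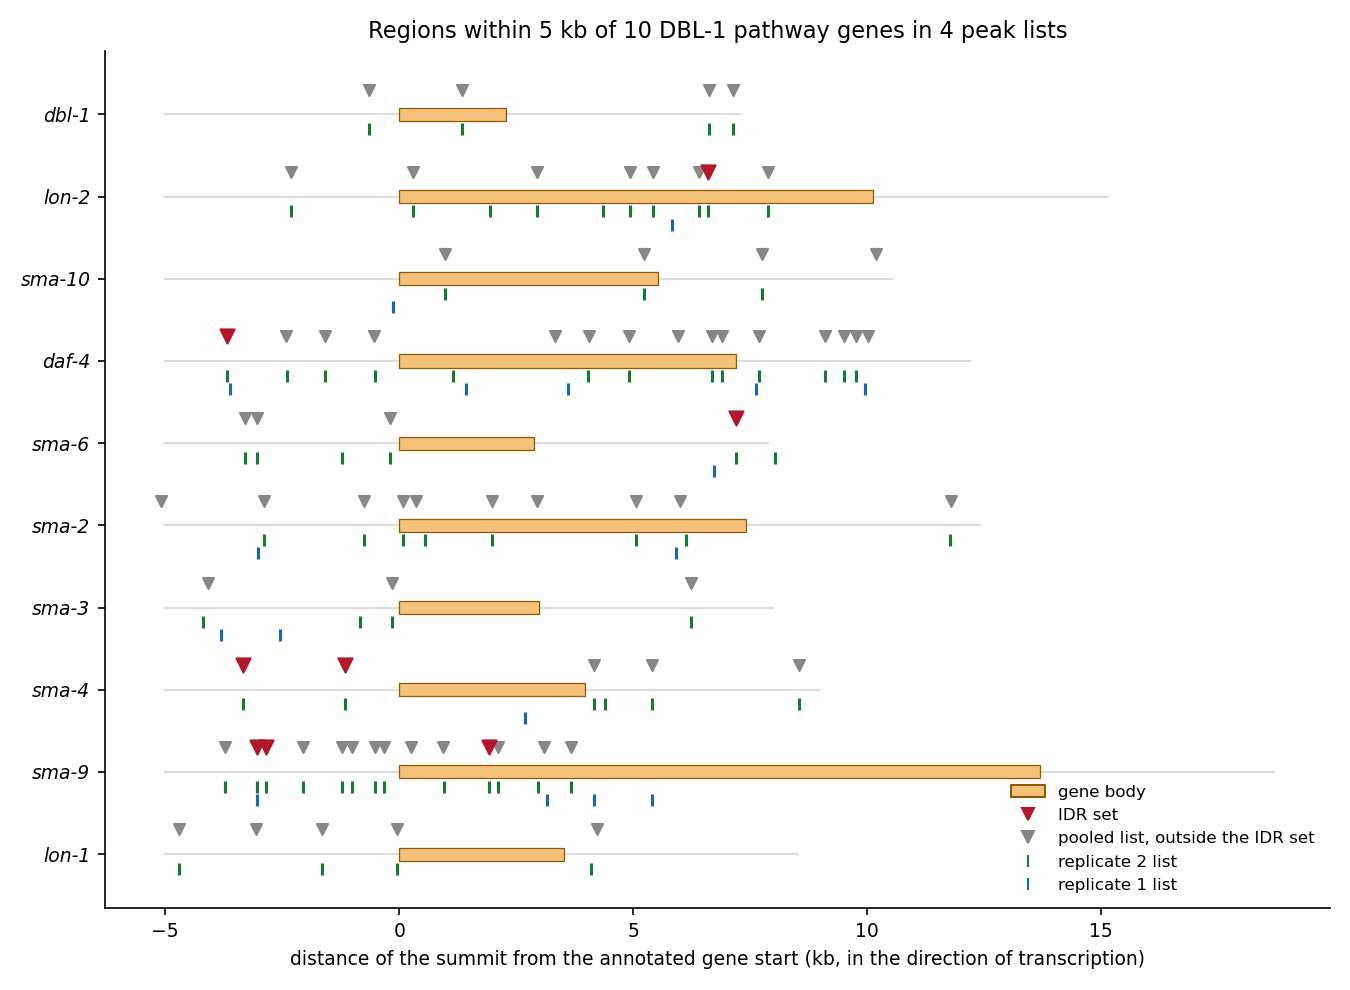
Summits of every region within 5 kb of each of the 10 genes, by distance from the annotated gene start in kb, with the gene body as a bar, peaks of the IDR set and other pooled regions as triangles above it and regions of each replicate as ticks below it. The 8 IDR peaks fall at 5 genes, 3 of them at sma-9, and dbl-1 and lon-1 have no tick of replicate 1.

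The sequences at the IDR summits are shown because they are the sites on which the account of these genes rests. Each is the 201 bases of the forward strand of ce11 centred on a summit, which is base 101, read 5′ to 3′ from the RefSeq sequence of WBcel235. Capitals mark ACGCAG or GAGAGA on either strand (CTGCGT and TCTCTC on the reverse). The strongest IDR peak of each of the 5 genes is given, and also the intronic peak of sma-9, which was added after its motif positions were seen.
sma-9 (rank 12, chrX:10766141-10766341): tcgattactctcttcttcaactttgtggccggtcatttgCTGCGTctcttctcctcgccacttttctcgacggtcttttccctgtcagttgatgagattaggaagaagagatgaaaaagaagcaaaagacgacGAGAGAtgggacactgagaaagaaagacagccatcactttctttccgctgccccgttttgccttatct
sma-9 (rank 702, chrX:10771103-10771303): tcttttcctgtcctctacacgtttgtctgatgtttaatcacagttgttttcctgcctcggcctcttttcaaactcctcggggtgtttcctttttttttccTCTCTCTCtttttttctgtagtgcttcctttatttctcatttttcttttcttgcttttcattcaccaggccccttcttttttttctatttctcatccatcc
daf-4 (rank 367, chrIII:5621355-5621555): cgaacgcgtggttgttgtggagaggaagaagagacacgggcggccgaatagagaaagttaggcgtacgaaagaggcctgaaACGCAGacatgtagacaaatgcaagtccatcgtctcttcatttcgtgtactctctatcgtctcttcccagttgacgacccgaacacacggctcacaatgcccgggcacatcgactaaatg
sma-4 (rank 524, chrIII:5812790-5812990): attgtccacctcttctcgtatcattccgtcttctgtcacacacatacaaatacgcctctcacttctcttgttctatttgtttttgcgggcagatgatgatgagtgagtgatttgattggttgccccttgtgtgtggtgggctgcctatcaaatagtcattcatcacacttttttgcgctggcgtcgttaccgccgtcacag
lon-2 (rank 2072, chrX:4742376-4742576): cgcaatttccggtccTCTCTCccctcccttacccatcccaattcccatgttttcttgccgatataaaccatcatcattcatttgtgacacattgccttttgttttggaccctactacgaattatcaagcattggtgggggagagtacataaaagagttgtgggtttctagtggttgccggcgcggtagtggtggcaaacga
sma-6 (rank 2348, chrII:6331570-6331770): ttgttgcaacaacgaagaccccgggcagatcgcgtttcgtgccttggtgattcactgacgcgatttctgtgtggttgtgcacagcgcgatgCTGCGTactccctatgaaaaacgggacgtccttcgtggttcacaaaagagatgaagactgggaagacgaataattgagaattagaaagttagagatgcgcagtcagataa

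Positions of matches are those of their leftmost base on the forward strand, for either strand. In the window of sma-9 rank 12, ACGCAG lay on the reverse strand at -61 from the summit, and GAGAGA lay at 33. At daf-4, ACGCAG lay at -19 from the summit, and at sma-6 it lay on the reverse strand at -9. In the sma-9 intron, the reverse of GAGAGA occurred at 0 and 2 from the summit as a single overlapping run of TC. The windows of lon-2, of sma-4 rank 524 and of sma-9 rank 702 had no ACGCAG. Those of sma-4 rank 524, daf-4 and sma-6 had no GAGAGA.

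Over all 8 windows of the IDR peaks, on both strands, ACGCAG was present in 5 (62.5%, 95% Wilson interval 30.6 to 86.3), against 27.4% of the 2511 IDR windows of the same length. GAGAGA was present in 4 (50%, 21.5 to 78.5), against 51.6%. These 6-mers were known from earlier results of the same data to be frequent at IDR summits. GTCT, the core of the Smad binding element, was present in 7 (87.5%, 52.9 to 97.8), against 82.6%, so it was near its level in all peaks. GTCT followed directly by its reverse complement, the palindromic Smad element, was present in 0 windows (interval up to 32.4%), against 0.398%. AGGTCA, the hexamer that COUP-TF receptors bind in pairs, was in 0 of 8 windows, against 6.33%, and TAATCC, the core bound by the homeodomain protein UNC-30, was in 0 of 8, against 3.94%. Only these letters were searched, and the counts bear on no factor. The windows had a median GC content of 47.3%, from 38.8 to 51.7%, and the median over all IDR windows was 44.3%.

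Among the ligand and the proteins that act at the cell surface, the IDR set had peaks at lon-2, daf-4 and sma-6, and none at dbl-1 or sma-10. The ligand gene dbl-1 (WBGene00000936, V, 6758135 to 6760418, forward strand) had 0 regions in the list of replicate 1, and 4 each in the replicate 2 and pooled lists. The strongest region had a signal value of 12.1 (rank 6090) in replicate 2 and 11.8 (rank 6839) in the pooled list, at 6629 bp from the gene start, in an intron of bbs-8. The only region in the promoter window of dbl-1 had a signal value of 4.84 in replicate 2 (rank 21025) and 4.73 in the pooled list (rank 23949). The nearest IDR peak beyond the span was 8055 bp downstream of the gene, with a signal value of 24.8, nearest to the start of clik-1.

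The gene lon-2 (WBGene00003056, X, 4738964 to 4749083, reverse strand) encodes a glypican that restrains DBL-1 signalling. It had 1 region in replicate 1, 10 in replicate 2 and 8 among the pooled ones. Of the 8 pooled summits, 7 lay within the gene, 6 of them in introns. Its IDR peak (chrX:4742296-4742655) had its summit in an intron at 6607 bp from the only annotated transcript start. It had a signal value of 26.6 (rank 2072), and the replicate 2 region at the same summit had 23.2 (rank 2381). The single region of replicate 1, with a signal value of 2.28 (rank 2939), lay at 5836 bp and did not overlap the IDR peak. The pooled region closest to the start, at 293 bp, had a signal value of 15.8 (rank 4651) and was not in the IDR set.

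The gene sma-10 (WBGene00020649, IV, 274420 to 279943, forward strand), whose LRIG-like membrane protein promotes signalling, had the weakest maximum of the 10 genes in the pooled list, 10.5 (rank 7934), at 7762 bp and nearest to the start of best-19. In replicate 2 its strongest region had 6.86 (rank 13061). Replicate 1 had 1 region, at -122 bp from a sma-10 start and with a signal value of 3.92 (rank 728). It overlapped no region of replicate 2 and none of the pooled list, and it also lay in the promoter window of srh-282.

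The type II receptor gene daf-4 (WBGene00000900, III, 5625135 to 5632323, forward strand) had 15 pooled regions, more than any other member, with 5 in replicate 1 and 13 in replicate 2. Its IDR peak (chrIII:5621275-5621634) was intergenic, with the summit at -3680 bp from the gene start, and daf-4 had the nearest protein-coding start. It had a signal value of 56.9 (rank 367). In replicate 2 the region at that summit had 51.9 (rank 403). The overlapping region of replicate 1 had 3.99 (rank 704), with its summit 71 bp away. This peak was therefore present in both replicates' own lists, and it was the strongest region at daf-4 in each. The next strongest pooled region, at -1594 bp, had 19.1 (rank 3571) and was not in the IDR set.

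The type I receptor gene sma-6 (WBGene00004860, II, 6324484 to 6327355, forward strand) had its IDR peak (chrII:6331490-6331849) 4135 bp beyond the 3′ end, with the summit at -329 bp from the start of set-4. It was the weakest IDR peak at a member, with a signal value of 24.7 (rank 2348), and 25.2 in replicate 2 (rank 2085). Replicate 1's region nearby, with a signal value of 2.55 (rank 2073), lay in an intron of set-4 and did not overlap it. In the sma-6 promoter window the strongest region ranked 5489 in the pooled list and 5684 in replicate 2, where it had a signal value of 12.7, with summits at -199 and -191 bp.

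Of the 3 Smad genes, IDR peaks lay at sma-4 only, and sma-2 and sma-3 had weaker regions. The receptor Smad gene sma-2 (WBGene00004856, III, 8749680 to 8757089, forward strand) had 2 regions in replicate 1, 8 in replicate 2 and 10 among the pooled ones. Both replicate 1 regions overlapped a replicate 2 region, though they were weak, with signal values of 2.35 and 2.15 (ranks 2681 and 3311). The strongest pooled region had 17.8 (rank 3963) and lay in the promoter window of the downstream neighbour aak-1, with 13.3 in replicate 2 (rank 5367). Nested or overlapping genes, ugtp-1 and tomm-70, share much of this locus. The pooled region at 5052 bp, with 12.7 (rank 6234), was in the windows of sma-2 and tomm-70 alike.

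The other receptor Smad gene, sma-3 (WBGene00004857, III, 6860974 to 6863968, reverse strand), had 3 pooled regions, the fewest of the 10. Its strongest, with a signal value of 21.1 (rank 3056), was the strongest pooled region at any member outside the IDR set, whose weakest peak had 23.8. It lay in the promoter window of zak-1, and replicate 2 had 18.0 there (rank 3573). Replicate 1 had 2 regions, of 3.58 (rank 945) and 2.27 (rank 2963), both in coding exons of cra-1 and neither overlapping a region of replicate 2.

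The co-Smad gene sma-4 (WBGene00004858, III, 5816232 to 5820204, forward strand) had 2 IDR peaks upstream. The stronger (chrIII:5812710-5813069) had a signal value of 49.2 (rank 524), and 46.4 in replicate 2 (rank 523), with its summit at -3342 bp from the sma-4 start, in an exon of the noncoding RNA gene R12B2.12. The weaker (chrIII:5814889-5815248) had 30.1 (rank 1658), and 30.7 in replicate 2 (rank 1428), with its summit in the 5′ UTR of R12B2.7, a gene that starts upstream of sma-4 on the same strand. Both were nearest to the start of R12B2.7. Neither overlapped a region of replicate 1. That replicate's only region at the locus had a signal value of 3.58 (rank 941) and lay inside sma-4, at -130 bp from an internal transcript start, where replicate 2 had no overlapping region.

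**Figure D2:**
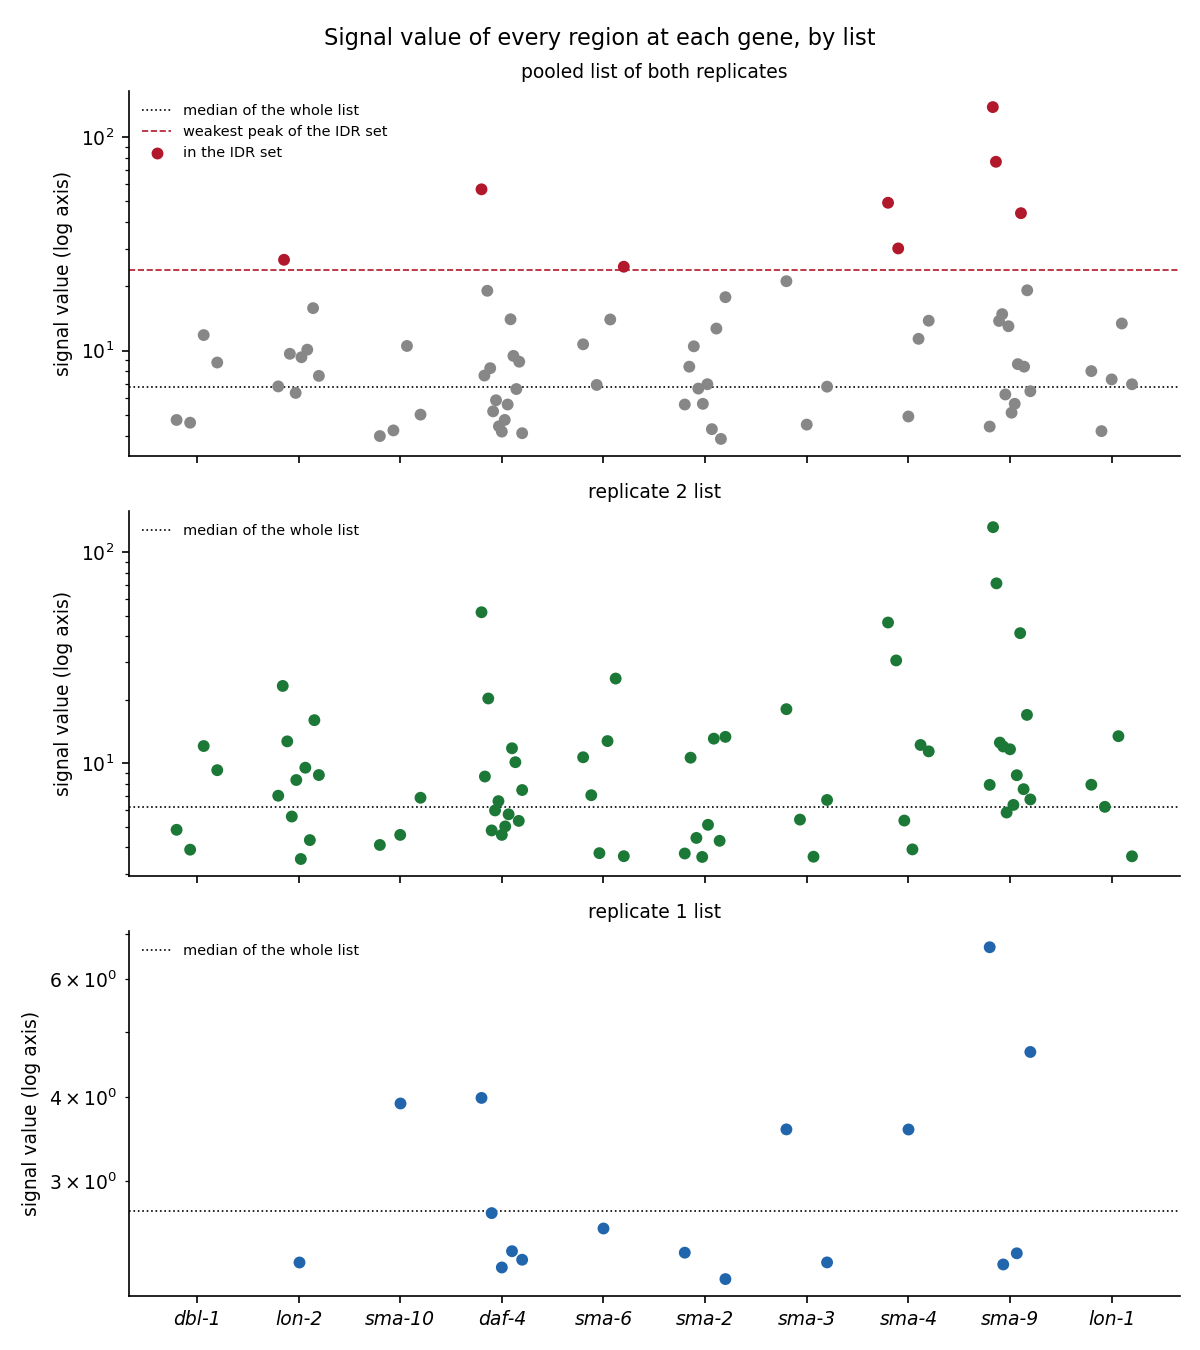
Signal value, on a log axis, of each region at the 10 genes in the pooled list, the replicate 2 list and the replicate 1 list, each with its own axis because values are not scaled between lists; points are spread sideways for legibility, red points are in the IDR set, the dashed line is that set's weakest peak and dotted lines are list medians. In the pooled list sma-9 holds the highest point, at 138, and the highest points of dbl-1, sma-10, sma-2, sma-3 and lon-1 lie under the IDR set's weakest peak of 23.8.

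The nuclear cofactor gene sma-9 (WBGene00004862, X, 10769282 to 10782973, forward strand) stood highest of the 10 genes in every list. It had 3 IDR peaks, and 1.45% of all protein-coding genes, whatever their length, had 3 or more. Its gene plus flanks was the longest of the 10, at 23.7 kb, beside a median of 12.03 kb over all genes. No share matched for length was taken. The annotation gives sma-9 16 transcripts from 6 distinct starts. The peak of rank 12 (chrX:10766113-10766334) had a signal value of 138 and its summit at -3041 bp from the gene start. The peak of rank 126 (chrX:10766264-10766623) had 76.5 and its summit at -2838 bp. These peaks share 71 bp, with summits 203 bp apart, so the 8 IDR peaks form 7 separate sites.

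In replicate 2 the regions at these summits had 131 (rank 12) and 71.1 (rank 140). Replicate 1 had 1 region across them, with 6.69 (rank 132), its summit 2 bp from that of the rank 12 peak. The upstream site of sma-9 was thus the strongest region at any member in each list. The site is intergenic, and no other protein-coding gene had a nearer start.

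The third IDR peak of sma-9 (chrX:10771023-10771382), of 44.0 (rank 702), and 41.3 in replicate 2 (rank 714), lay in an intron at 1921 bp from the gene start and at -1878 bp from the nearest sma-9 transcript start. It overlapped no region of replicate 1. A pooled region at 3088 bp, with 19.2 (rank 3535), was overlapped by replicate 1 (2.25, rank 2997) and replicate 2 (16.9, rank 3909) but was not in the IDR set. Replicate 1 had its second strongest region here, of 4.67 (rank 483), inside the gene at 5403 bp, where replicate 2 had none. Of the 14 pooled summits at sma-9, 8 lay upstream and 6 within the gene, the farthest at 3677 bp from its start.

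**Figure D3:**
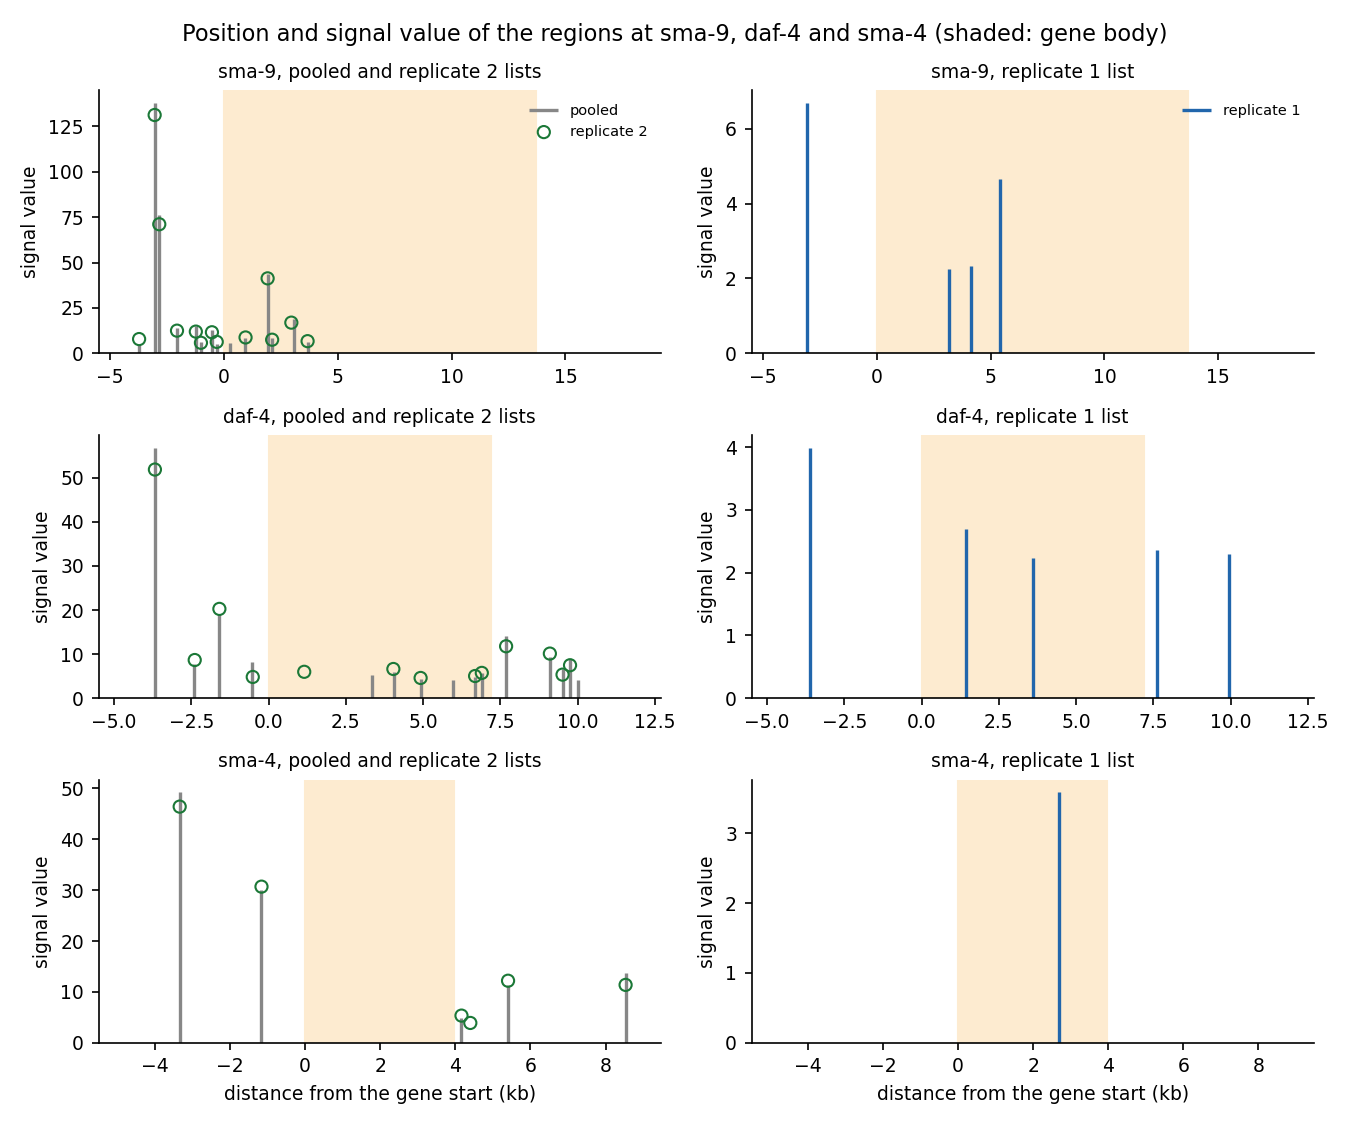
Signal value against distance from the gene start in kb at sma-9, daf-4 and sma-4, with pooled regions as lines and replicate 2 regions as circles on the left and replicate 1 regions as lines on the right; the gene body is shaded. At sma-9 and daf-4 the strongest line is the same upstream site in all lists, and at sma-4 the only replicate 1 region lies inside the gene, away from the upstream peaks.

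The gene lon-1 (WBGene00003055, III, 5474476 to 5478005, forward strand) encodes a secreted CRISP-related inhibitor of body length whose transcript is known to be lowered by DBL-1 signalling. It had 0 regions in replicate 1, 4 in replicate 2 and 5 among the pooled ones, and no IDR peak. Its strongest region lay at the start of the gene, with the summit at -40 bp, and had a signal value of 13.4 in replicate 2 (rank 5316) and 13.4 in the pooled list (rank 5814). The other pooled regions had 4.20 to 8.02.

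Over the 10 genes, 8 had a region in the replicate 1 list, against 35.0% of all genes, and 10 had one in that of replicate 2, against 87.1%. All 10 had one in the pooled list, against 87.2%. Among the genes with spans as long as those of the members, the shares were 40.8% for replicate 1, 92.1% for replicate 2 and 92.4% for the pooled list. The 8 genes with a region in replicate 1 also had one in replicate 2, against 32.9% of all genes for both lists, but not always at the same place: of 17 replicate 1 regions at the members 8 overlapped a replicate 2 region, and of all 3577 replicate 1 regions 1758 did. Of the 8 IDR peaks at the members, 3 were overlapped by replicate 1, the overlapping sma-9 peaks of ranks 12 and 126 and the daf-4 peak, and all 8 by replicate 2. Over the whole IDR set the shares were 30.7% for replicate 1 and 99.96% for replicate 2. The 2 sma-9 peaks were overlapped by the same replicate 1 region. With at least 50% of the shorter region shared, the count at the members was 2 of 8. With 8 peaks, the members' share was not tested against that of the set.

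Per length, regions were denser at the members in each list. There were 4.51 pooled regions per 10 kb of gene and flanks at the members, and 2.98 over all protein-coding genes, whose flanks overlap so that a region can count more than once. The densities were 1.07 and 0.353 in replicate 1, 4.45 and 2.97 in replicate 2, and 0.501 and 0.245 in the IDR set. Without sma-9 the members had 0.368 IDR peaks, 4.27 pooled regions and 0.957 replicate 1 regions per 10 kb. The members varied from 0.231 pooled regions per kb at sma-3 to 0.873 at daf-4. The strongest pooled region of each member had a median signal value of 22.9, and the same median over all genes with a region was 13.6. The members' maxima were taken over longer spans, with a median of 14.75 kb beside 12.03 kb over all genes. They also had more pooled regions, a median of 5 beside 3, and no comparison matched for length was made.

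**Figure D4:**
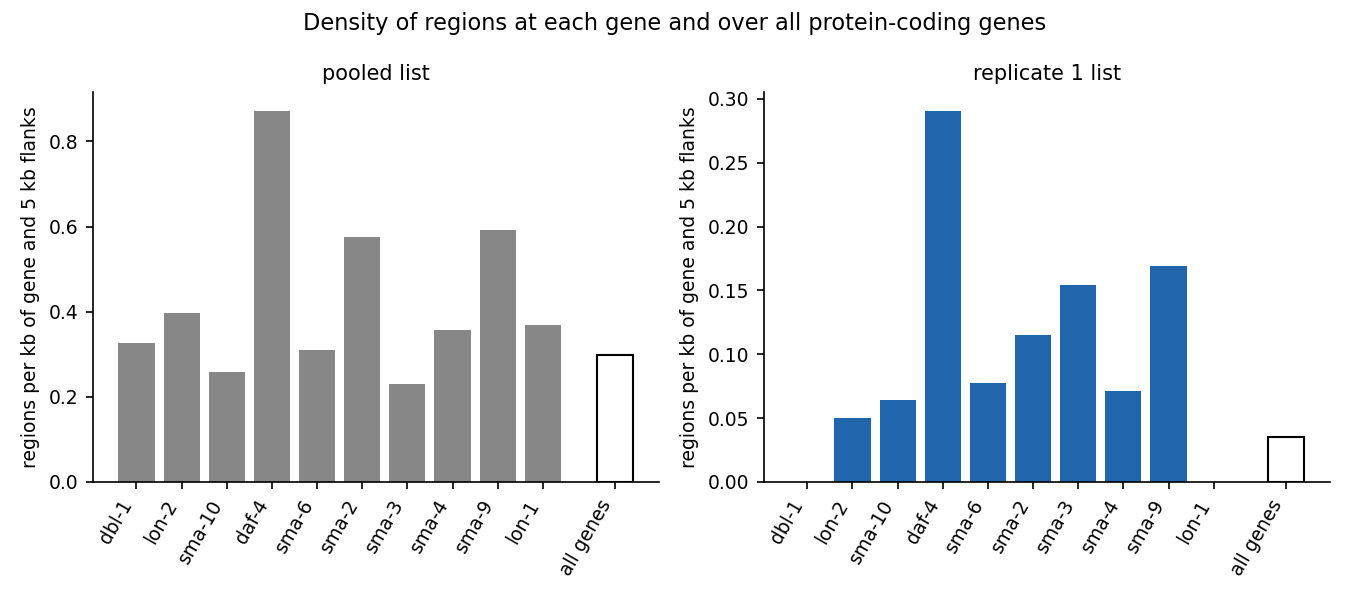
Regions per kb of gene plus 5 kb flanks at each of the 10 genes (filled bars) and over all protein-coding genes (open bar, total regions over total length) in the pooled and replicate 1 lists. In the pooled list daf-4 is highest at 0.873, sma-9 and sma-2 follow, and sma-10 and sma-3 lie under the open bar.

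Promoter windows of the members held 13 pooled summits at 7 genes, against 43.7% of all genes, and 14 summits at 7 genes in replicate 2, against 43.6%. In replicate 1 they held 5 summits at 4 genes, against 7.04%. Of the 72 pooled summits, 28 lay upstream of the gene start, 28 within the gene and 16 downstream. The member had the nearest protein-coding start for 44 of the 72 and another gene for 28. At sma-9 and lon-2 this was so for all pooled summits, 14 and 8, and at daf-4 for 9 of 15. At sma-4 it was 1 of 5 and at sma-2 3 of 10.

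Other genes of the pathway were taken from 3 lists, drawn up with earlier results of these data known. Of 14 further modulators of DBL-1 signalling, 6 had an IDR peak within 5 kb. They were unc-40, a DCC and neogenin family receptor, with a signal value of 45.8 (rank 633), tsp-21, a tetraspanin, with 44.1 (rank 695), and rnt-1, a Runx factor, with 41.8 (rank 806). The others were drag-1, a repulsive guidance molecule co-receptor, with 40.1 (rank 890), sup-17, an ADAM10 protease, with 31.2 (rank 1548), and mab-21 at rank 1891. In 5 of the 6 a summit lay in the gene's own promoter window, and drag-1 was the exception, its peak being nearest to Y71G12B.35. Of the 14 modulators 5 thus had such a summit, beside 0 of the 10 members and 7.34% of all protein-coding genes, and these shares were not tested. The mab-21 peak and the weaker of 2 tsp-21 peaks were overlapped by replicate 1.

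Of 10 other TGF-beta ligands and components of the DAF-7 dauer branch, 6 had an IDR peak. These were daf-14 with 47.4 (rank 577), daf-5, a Sno/Ski family protein, with 46.6 (rank 604), daf-3, a co-Smad, with 44.9 (rank 661), tag-68 with 43.8 (rank 710), unc-129, a TGF-beta-like ligand, with 42.3 (rank 777), and daf-8, a receptor Smad, with 25.4 (rank 2249). Among the 6, daf-5 was the 1 gene with a summit in its own promoter window, at the weakest of its 3 peaks. The peaks of daf-3, unc-129 and daf-8 lay nearest to the starts of wdr-54, C53D6.11 and ran-4. Those of unc-129 and daf-8 and the strongest of daf-5 were overlapped by replicate 1. The ligand genes daf-7, tig-2 and tig-3 had no IDR peak, like dbl-1 and most protein-coding genes, of which 24.6% had one. The ligand gene unc-129 did have one. Of 8 genes reported as targets of DBL-1 signalling, 1 had an IDR peak, the collagen gene col-41, with a signal value of 25.0 (rank 2302), its summit at -5155 bp and nearest to the start of pkhm-2. The shares were 42.9%, 60% and 12.5% of the lists, beside the 24.6% of all genes.

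In the gene body alone 2 members, sma-9 and lon-2, had an IDR peak, against 5.43% of all genes. The limit of 5 kb and the end of the IDR set decide which peaks are counted. The member peak nearest the limit on the inside was that of sma-6, 4135 bp from the gene, and the nearest on the outside was 7074 bp from sma-3, with a signal value of 24.6 (rank 2358) and nearest to the start of K04C2.8. By signal, the weakest IDR peak at a member was that of sma-6, at 24.7 (rank 2348), in a set that ends at 23.8 (rank 2511). The strongest member region outside the set, at sma-3, had 21.1 (pooled rank 3056).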

How the data were processed

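UNC-55 ChIP-seq regions from 2 biological replicates were taken from the deposited ce11 lists; the ce10 lists were not used here. Per the README files deposited by the authors, each replicate's list came from its alignment and a control, the pooled list from both alignments and the control, and the optimal set from these 3 lists. Aligner and peak caller: not given in the sources used here. The deposited signal value and the deposited −log10 q-value stand in the columns of the narrowPeak layout; the scale of the signal is not stated. Ranks were computed here from the signal value. Depth is unknown, so intervals (95% Wilson, over peaks) cover counting error only. All regions ended within the WBcel235 chromosomes; genes came from Ensembl release 115. Positions are 1-based. No test was made: there is 1 group. Members, lists and motifs were chosen with earlier results of these data known. The genes named are the 10 members, the genes with the nearest start to their peaks, and listed genes with an IDR peak; neighbours at weaker regions and beyond the flanks were named after their positions were seen. Counting of overlaps was tested on simulated data. Tools were Python 3.11.15, pandas 2.3.3, numpy 2.4.6, scipy 1.17.1 and matplotlib 3.10.9.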

Additional observations from a re-analysis of the deposited data

How the results depend on the processing

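The count of members with an IDR peak, 5, and of IDR peaks at them, 8, depended on the reach of the span and on the peak set. With 2 kb flanks they were 3 and 3 (15.3% of all genes had a peak), and in the gene body alone 2 and 2 (5.43%). With only IDR peaks overlapped by replicate 1 they were 2 and 3, and with the IDR peaks above that set's median signal value 3 and 5. Apart from the 2 kb and gene body shares just given, this paragraph has no share over all genes or all IDR windows. Its other counts and motif shares therefore describe the members only and cannot be set against the genome. With one replicate left out, the strongest 2511 regions of the other gave 5 to 6 members, 8 to 8 regions and 0 to 3 members with a summit in a promoter window. The 3 came from replicate 1's list, at sma-4, sma-10 and daf-4. The equal counts of 8 were not the same places. Replicate 1's strongest regions included sma-3 (rank 945) and sma-10 (rank 728) but not lon-2 (rank 2939). Among them, only rank 132 at sma-9 and rank 704 at daf-4 overlapped an IDR peak. A promoter window of 2000 bp before and 500 bp after a start gave 2 such members, against 0 with the chosen window. Shorter flanks, smaller peak sets and the wider window change the length or the number of peaks searched by construction. The list with one replicate left out has as many regions as the IDR set, and the cause of its difference was not tested. Members with a region in both replicates were 4 with the strongest 2511 regions of each list and 5 in the gene body alone, against 8. GTCT was in 50% of summit windows of 50 bp each side and in 100% of whole peaks, and GAGAGA in 87.5% of whole peaks; shorter and longer windows hold fewer and more matches by construction. Of 40 values under alternatives, 25 stayed within 1.5 times the chosen value or within its interval. Many of these were 0 under both settings, and a smaller peak set or a narrower window could not raise a promoter count of 0. Others stayed only within a wide interval over 8 windows, such as GAGAGA at 25% with 50 bp each side. The tally is therefore no measure of stability. Read depth was not known, so absence from replicate 1's list cannot be told from low depth.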

Other observations

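Some of the regions at these genes lay at annotated noncoding RNA genes. The share of all regions that lie at such genes is not given, so this is no trait of the members. The summit of the strongest sma-4 peak was in an exon of R12B2.12. The replicate 1 region that overlaps the daf-4 peak had its summit, at -3609 bp from the daf-4 start, in an exon of C05D2.13. The replicate 2 region in the sma-6 promoter window had its summit in an exon of C32D5.16. A region at -314 bp from the sma-9 start, in the pooled and replicate 2 lists, had its summit in an exon of T05A10.8.

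The 2 members on the X chromosome, sma-9 and lon-2, held 4 of the 8 IDR peaks, and the 5 members on III held 3. The IDR set had 526 of its 2511 peaks on X and 402 on III. With 10 genes no relation to the chromosome was tested.

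At dbl-1, sma-2, sma-3, sma-10 and lon-1, the nearest IDR peak lay 7074 to 9695 bp from the gene. These peaks had signal values of 24.6 to 41.3, the highest being that upstream of sma-2, nearest to the start of pdhk-2.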
